A study of Mus musculus with 17 samples.

Results

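Cd2 and the genes beside it on mouse chromosome 3, Ptgfrn, Igsf3, Ttf2 and Trim45, were followed across thymocytes of wild-type and Lmo2-transgenic mice. The 5 genes were taken by symbol from the 27179 rows of the count table, and all 5 were among the 13534 that passed the filter on low counts. They were chosen by their levels in transgenic libraries of these same data, so every difference between genotypes, and every stage difference that involves transgenic mice, is given for them as a description with no test. The question asked was which neighbours follow Cd2 in transgenic libraries, and at which stage.

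All mice were C57BL/6. Wild-type and Lmo2-transgenic young mice, aged 2.5 to 3 weeks, gave DN2 cells (2 and 3 libraries) and DN3a cells (3 and 3 libraries). Old mice gave DN3a cells only, 3 libraries of wild-type animals aged 8 to 10 weeks and 3 of transgenic animals aged 6 to 10 weeks. Each library is labelled with 1 mouse, and 5 young mice gave both a DN2 and a DN3a library. The transgenic mice differ from the controls by the Lmo2 transgene as far as the labels tell. Lmo2-transgenic lines that use CD2 control elements have been described, but the sources used here name neither the promoter nor the founder line of these mice. Whether any read from a transgene construct was counted at Cd2 was not tested.

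CD2 is an adhesion and costimulatory receptor of T cells and natural killer cells. It is a founding relative of the SLAM family, binds CD48 in mice, and signals through a long proline-rich tail that recruits adaptor proteins. Ptgfrn and Igsf3 encode immunoglobulin-superfamily membrane proteins of the EWI group, which sit beside tetraspanins such as CD9 and CD81. Ttf2 encodes an ATPase that releases RNA polymerase from DNA during termination and mitosis, and Trim45 encodes a RING-finger protein of the tripartite-motif family of ubiquitin ligases. DN2 and DN3a are successive CD4- CD8- stages of thymic development. Lmo2, a LIM-only bridging protein of blood progenitors, is normally silenced as thymocytes commit to the T lineage.

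In GRCm38, the build of the annotation used and of the deposited counts, the genes lie in the order Trim45 (chr3:100921203-100936925, plus strand), Ttf2 (chr3:100938860-100969700, minus strand), Ptgfrn (chr3:101040230-101110745, minus strand), Cd2 (chr3:101275908-101287939, minus strand) and Igsf3 (chr3:101376672-101463060, plus strand). The gap from Ptgfrn to Cd2 is 165 kb and that from Cd2 to Igsf3 is 88.7 kb, and both are free of other genes in the count table. Trim45 and Ttf2 point at each other across 1934 bases. The sources used here do not give the strand of the libraries, and a transcript that reads from one gene into the next could not be told from that gene's own.

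The promoters of the pair that followed Cd2 and of Trim45, whose levels did not, are shown for comparison. Each run is the 250 bases before the start site in the RefSeq table for GRCm38.p6, read 5′ to 3′ on the gene's strand, with E-boxes (CANNTG, searched on both strands) in capitals. The table gives 1 start per gene, which for Ptgfrn, Igsf3 and Trim45 lies downstream of the outermost gene coordinate above, so these runs fall within the annotated genes. LMO2 is known to act in complexes with E-box-binding factors, which is why this motif was searched. Positions are chr3:101110167-101110416 on the minus strand for Ptgfrn, chr3:101376875-101377124 on the plus strand for Igsf3 and chr3:100922243-100922492 on the plus strand for Trim45.
Ptgfrn: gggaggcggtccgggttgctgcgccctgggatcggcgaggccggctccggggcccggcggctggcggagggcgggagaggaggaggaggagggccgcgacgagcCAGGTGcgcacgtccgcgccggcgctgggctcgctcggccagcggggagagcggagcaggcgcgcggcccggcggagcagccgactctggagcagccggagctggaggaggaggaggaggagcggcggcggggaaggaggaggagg
Igsf3: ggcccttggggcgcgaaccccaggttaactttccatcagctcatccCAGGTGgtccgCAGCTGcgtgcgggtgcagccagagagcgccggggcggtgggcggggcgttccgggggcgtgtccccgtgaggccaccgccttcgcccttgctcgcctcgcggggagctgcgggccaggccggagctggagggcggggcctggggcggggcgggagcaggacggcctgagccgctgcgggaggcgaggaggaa
Trim45: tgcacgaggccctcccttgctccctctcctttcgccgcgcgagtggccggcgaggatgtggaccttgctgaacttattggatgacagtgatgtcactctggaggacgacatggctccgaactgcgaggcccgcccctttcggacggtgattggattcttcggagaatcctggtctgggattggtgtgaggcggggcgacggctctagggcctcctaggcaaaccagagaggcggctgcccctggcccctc
Of the 5 genes, 4 had an entry in that table, all but Cd2. The Ptgfrn window held 1 E-box (CAGGTG) and the Igsf3 window 2 (CAGGTG and CAGCTG), while the Trim45 and Ttf2 windows held none. An E-box stood in 72.3% of all 32851 promoter windows of 300 bases, so its presence is common. GATA was found in none of the 4 windows against 57.9% of all, and the RUNX motif TGTGGT was found once, in Ttf2, against 16.8% of all. Over the whole 300-base windows the letters C and G made up 80.0% for Ptgfrn, 75.0% for Igsf3, 64.3% for Trim45 and 60.0% for Ttf2, against a median of 52.7% over all windows. These matches describe the letters only.

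Counted reads numbered 7183303 to 11360308 per library, which makes 1 read worth 0.0880 to 0.139 CPM (counts scaled to 1000000 counted reads). Lmo2 followed the genotype labels in all 17 libraries. It stood at 114 ± 43.7 CPM (SD, n = 3) in transgenic DN2, and at 33.8 ± 6.77 and 25.3 ± 4.72 in transgenic DN3a of young and old mice, against group means of 0.205 to 0.330 in wild-type mice. Wild-type DN2 replicate 1 stood apart with 13028 genes that had a read, against 14447 to 15680 in the others. In 4 libraries 1 unnamed feature took over 8% of reads. These were transgenic DN2 replicates 2 and 3, transgenic young DN3a replicate 1 and wild-type old replicate 1.

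Cd2 was close to silent in wild-type cells and was read in every transgenic library above every wild-type one. The wild-type DN2 libraries held 0.880 and 0.718 CPM, the wild-type young DN3a libraries 0.285, 0.850 and 0.493, and the wild-type old DN3a libraries 0.478, 0.436 and 0.355. These levels rest on 3 to 10 reads a library, and young DN3a overlapped both other groups, while the old DN3a libraries lay below the DN2 ones. The transgenic DN2 libraries held 16.5, 5.29 and 2.41 CPM. The transgenic young DN3a libraries held 53.7, 81.1 and 94.2 CPM, and the transgenic old DN3a libraries 70.0, 44.0 and 49.7 CPM. Thus transgenic DN2 cells lay between, with a spread among mice as wide as their mean (8.07 ± 7.45 CPM, SD, n = 3), and both DN3a groups lay above them and overlapped.

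On the log2 scale of the edgeR fit, the transgenic excess of Cd2 was 3.36 ± 0.60 (SE) at DN2, or 10.3-fold. It was 7.28 ± 0.55 at DN3a in young mice (156-fold) and 6.97 ± 0.57 in old ones (125-fold). From the highest fold downward Cd2 ranked 355 of 13534 tested genes at DN2, and 9 and 27 at young and old DN3a. Without transgenic DN2 replicate 1 the DN2 value was 2.41, and without the 4 libraries rich in the unnamed feature, which leaves 1 transgenic DN2 library, it was 4.28.

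**Figure D1:**
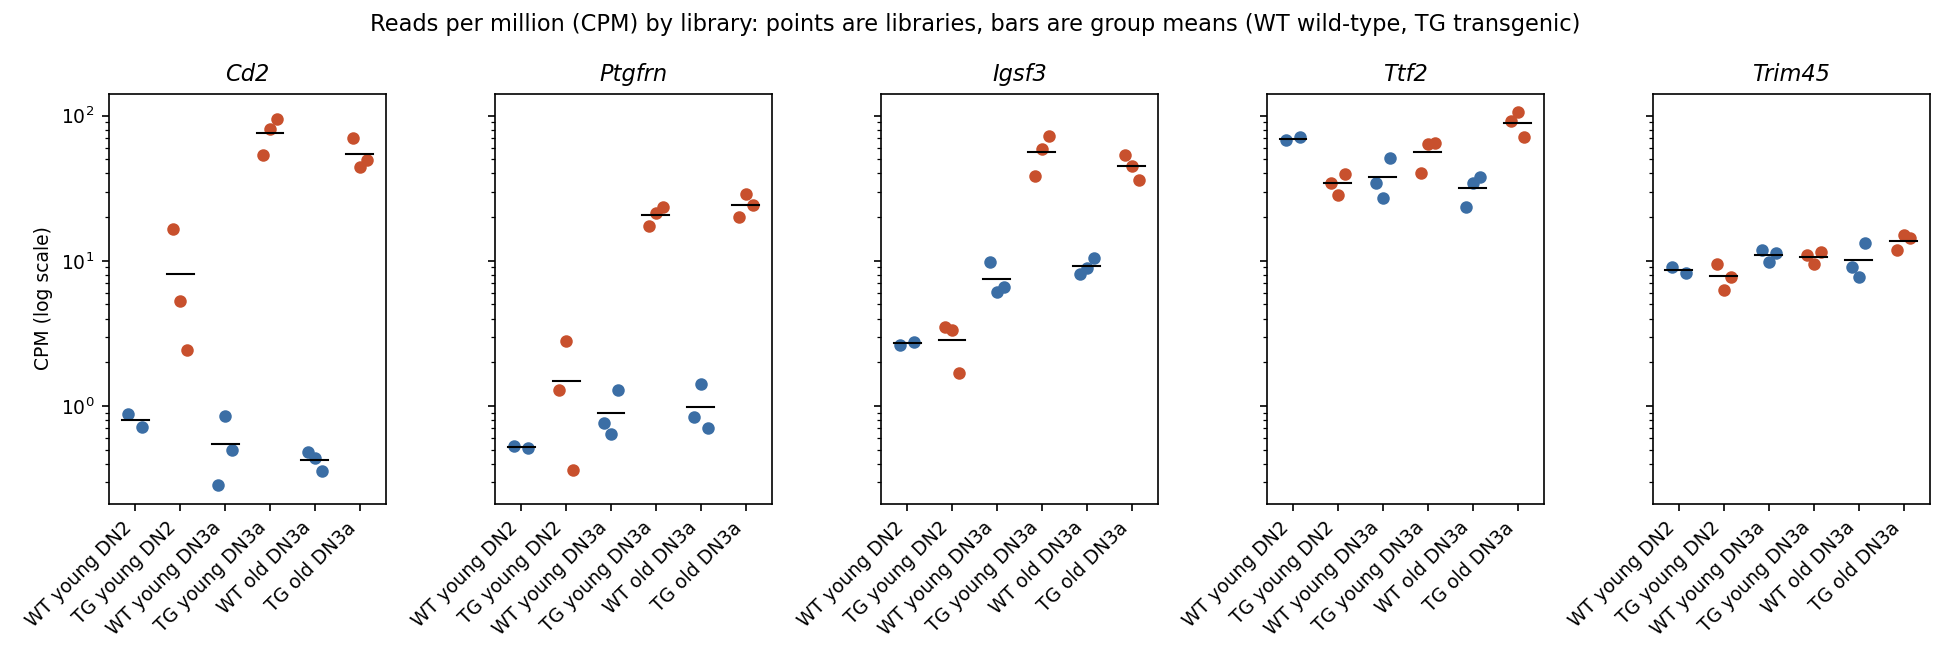
CPM (log scale) of the 5 genes in each of the 17 libraries, by group; each point is a library and each bar a group mean. In transgenic DN3a groups Cd2, Ptgfrn and Igsf3 lie above the wild-type points of the same age, Ttf2 does so only in old mice, and Trim45 overlaps in every comparison of genotypes.

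Ptgfrn, an EWI protein first described as a partner of the prostaglandin F receptor, followed Cd2 at the DN3a stage. Wild-type libraries held 0.528 and 0.513 CPM in DN2, 0.760, 0.638 and 1.28 CPM in young DN3a, and 0.837, 1.42 and 0.709 CPM in old DN3a. Transgenic young DN3a libraries held 17.5, 21.5 and 23.5 CPM and transgenic old ones 19.9, 29.0 and 24.2 CPM, all above the wild-type values. In transgenic DN2 the libraries held 1.29, 2.78 and 0.361 CPM, and the lowest of these, on 3 reads, was under both wild-type DN2 libraries. The log2 excess was 1.55 ± 0.63 at DN2, and 4.69 ± 0.48 and 4.61 ± 0.48 at young and old DN3a (25.8-fold and 24.4-fold). Leaving out transgenic DN2 replicate 2 brought the DN2 value to 0.69.

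Igsf3, a further member of the EWI group, followed Cd2 at the DN3a stage and did not part from wild-type at DN2. Its DN2 libraries held 2.64 and 2.77 CPM in wild-type and 3.48, 3.34 and 1.69 CPM in transgenic mice, which overlap. In young DN3a the wild-type libraries held 9.88, 6.06 and 6.61 CPM and the transgenic ones 38.3, 58.6 and 73.0 CPM. In old DN3a they held 8.13, 8.94 and 10.4 CPM and 53.4, 45.1 and 36.0 CPM. Every transgenic DN3a library was thus above every wild-type one. The log2 excess was 0.15 ± 0.33 at DN2, and 3.07 ± 0.26 and 2.30 ± 0.25 at young and old DN3a (8.39-fold and 4.91-fold). Unlike Cd2 and Ptgfrn, Igsf3 was already read in wild-type DN3a, on 57 to 104 reads a library.

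Ttf2, the polymerase-release factor, was lower in transgenic than in wild-type mice at DN2 and higher at DN3a. The DN2 libraries held 67.5 and 71.4 CPM in wild-type and 34.6, 28.4 and 39.9 CPM in transgenic mice, with no overlap. In young DN3a the wild-type libraries held 34.5, 27.1 and 51.0 CPM and the transgenic ones 40.5, 63.6 and 65.1 CPM, which overlap. In old DN3a they held 23.4, 34.3 and 37.8 CPM and 91.5, 106 and 70.9 CPM, again apart. The log2 difference was -0.92 ± 0.24 at DN2, and 0.75 ± 0.22 and 1.50 ± 0.23 at young and old DN3a. So its direction at DN2 was opposite to that of Cd2 in the same libraries.

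Trim45 overlapped between genotypes in all 3 comparisons. Its libraries ranged from 8.31 to 9.07 CPM in wild-type and 6.26 to 9.45 in transgenic DN2, from 9.88 to 11.9 and 9.44 to 11.5 in young DN3a, and from 7.74 to 13.4 and 11.9 to 15.1 in old DN3a. The log2 differences were -0.07 ± 0.27, 0.13 ± 0.24 and 0.48 ± 0.24. Their 95% intervals ran from -0.61 to 0.47, from -0.34 to 0.61 and from 0.0028 to 0.95, given as a description like the differences.

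A fold of 4 or more in the transgenic direction was reached by 1 of the 5 genes in young DN2 (Cd2), where 6.24% of all tested genes reached it. In young DN3a 3 of the 5 reached it (Cd2, Ptgfrn and Igsf3) against 2.87% of all genes, and in old DN3a the same 3 against 3.49%. The genes were chosen on these contrasts, and nothing is read from the counts. The median log2 difference of all tested genes was 0.03, 0.02 and -0.04, so the scaling was centred near 0.

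The stage difference was seen in single mice. In transgenic mice 162, 163 and 166 the DN3a library held 4.91, 17.8 and 22.3 times the Cd2 CPM of the same animal's DN2 library. The ratios were 16.6, 8.45 and 48.3 for Ptgfrn and 16.8, 21.9 and 22.7 for Igsf3. Cd2, Ptgfrn and Igsf3 were thus higher at DN3a in 3 of 3 transgenic mice, with the mice in the same order for Cd2 and Igsf3 and another for Ptgfrn. In wild-type mice 1 and 2 the ratios were 0.324 and 1.18 for Cd2, 1.44 and 1.24 for Ptgfrn and 3.74 and 2.19 for Igsf3. Ttf2 gave 1.84, 2.29 and 1.02 in the transgenic mice and 0.511 and 0.380 in the wild-type mice. For Trim45 the ratios were 1.00, 1.84 and 1.42 against 1.31 and 1.19.

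**Figure D2:**
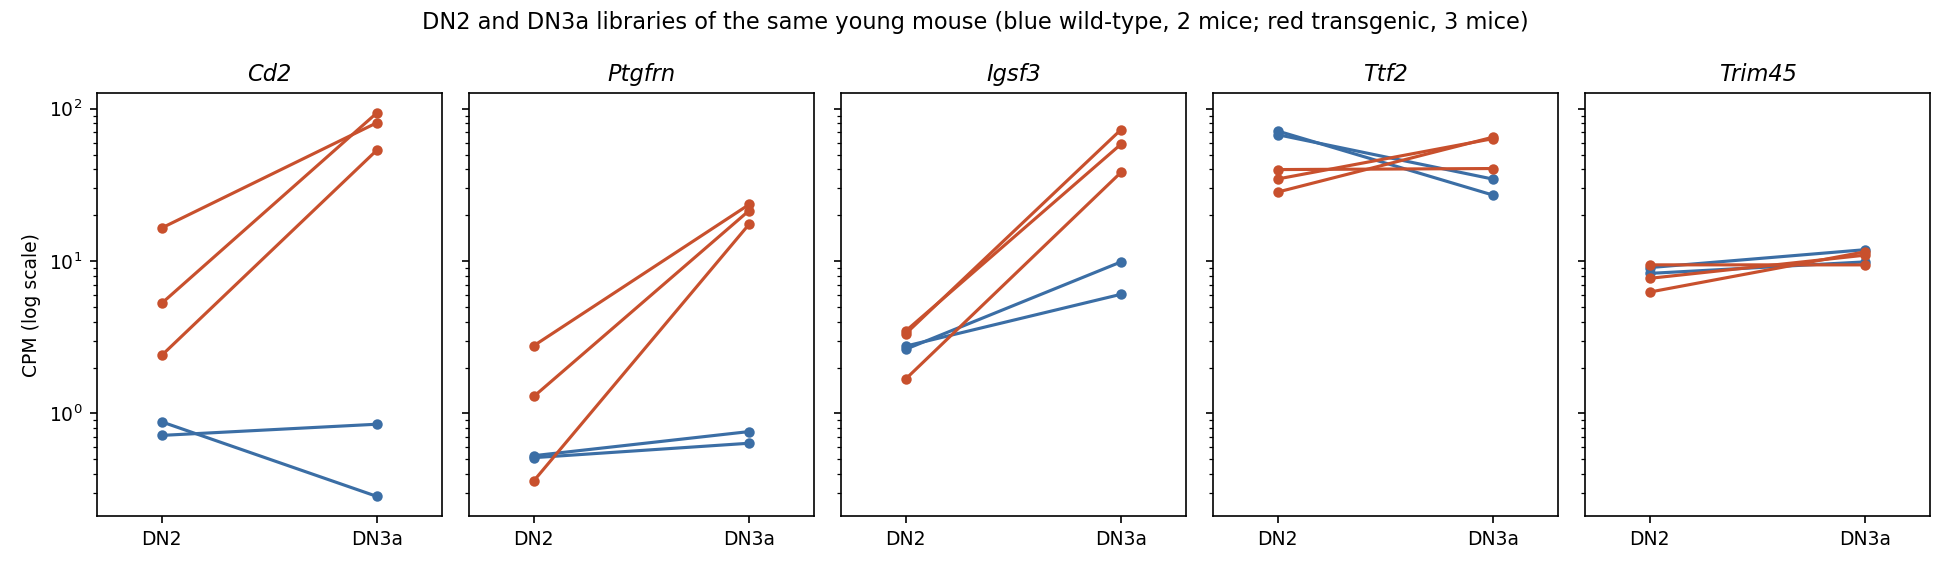
CPM (log scale) of the 5 genes in the DN2 and DN3a libraries of the same young mouse, joined by a line, for 2 wild-type mice (blue) and 3 transgenic mice (red). The red lines of Cd2, Ptgfrn and Igsf3 climb steeply, with ratios of 4.91 to 48.3, while the blue lines of Igsf3 rise by 3.74 and 2.19 times and those of Ttf2 fall.

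In the fit over all libraries the transgenic rise from DN2 to DN3a was 3.26 ± 0.41 on the log2 scale for Cd2, 3.82 ± 0.46 for Ptgfrn, 4.30 ± 0.29 for Igsf3, 0.71 ± 0.22 for Ttf2 and 0.46 ± 0.25 for Trim45. It was 4-fold or more in 3 of the 5 genes, against 3.77% of all tested genes. Igsf3 thus had the largest fitted stage difference in transgenic mice while Cd2 had the largest genotype difference. Without transgenic DN2 replicate 1 the Cd2 value was 4.21, and without transgenic DN2 replicate 2 the Ptgfrn value was 4.67. The difference of the stage effects between genotypes (transgenic minus wild-type) was 3.92 ± 0.89 for Cd2, 3.14 ± 0.83 for Ptgfrn, 2.91 ± 0.42 for Igsf3, 1.68 ± 0.33 for Ttf2 and 0.20 ± 0.37 for Trim45.

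The passage from DN2 to DN3a in wild-type mice compares no transgenic library and was tested. The filter, the scaling and the estimate of spread came from all 17 libraries. Igsf3 rose by 1.39 ± 0.32 on the log2 scale, 2.62-fold (edgeR quasi-likelihood, adjusted p = 0.0155), and Ttf2 fell by 0.97 ± 0.24 (adjusted p = 0.0243), each with no overlap between the 2 DN2 and 3 DN3a libraries. So 1 of the 5 genes was called higher, against 2.93% of all tested genes, and 1 lower, against 3.64%. Cd2 (-0.66 ± 0.76, adjusted p = 0.644), Ptgfrn (0.68 ± 0.65, 0.565) and Trim45 (0.26 ± 0.27, 0.612) did not pass. The 95% interval for Cd2 ran from -2.15 to 0.83, which leaves a fall of over 4-fold within reach at this depth. Cd2 passed the filter on low counts only through its transgenic libraries, and fell under it in fits of the wild-type groups alone. At such counts its wild-type tests could hardly pass, and nothing is read from them. Ptgfrn was also scarce, on 5 to 13 reads in each of these wild-type libraries, and nothing is read from its test either.

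The Igsf3 and Ttf2 calls rest on few libraries. Without wild-type DN2 replicate 1 the adjusted p was 0.176 for Igsf3 and 0.181 for Ttf2, and without wild-type young DN3a replicate 1 it was 0.0742 and 0.0944. The Ttf2 call was also lost without wild-type DN2 replicate 2 (0.0535) and without wild-type young DN3a replicate 2 (0.129). In a fit of the young wild-type groups alone neither passed (0.100 and 0.0616). The direction stayed the same in each of these fits.

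Age was tested within each genotype. Between old and young wild-type DN3a none of the 5 genes passed (adjusted p from 0.885 to 0.984 in edgeR), and 0.229% of all tested genes did. None was under 0.05 unadjusted, and DESeq2 and limma voom also called 0. Cd2 was again under the filter in a fit of these groups alone, so its result here decides nothing. Nor does that of Ptgfrn, on 6 to 13 reads a library in these groups. Between old and young transgenic DN3a none passed in edgeR either, against 7.81% of all tested genes. Ttf2 was the 1 gene under 0.05 unadjusted, with all 3 old libraries above all 3 young ones. Its value was 0.57 ± 0.22 (edgeR adjusted p = 0.126). Cd2 stood at -0.58 ± 0.37 (adjusted p = 0.357), Igsf3 at -0.43 ± 0.24 (0.275), Ptgfrn at 0.13 ± 0.38 (0.872) and Trim45 at 0.27 ± 0.24 (0.533). DESeq2 called 0 of the 5, and limma voom with quality weights called 1, Cd2, at -0.64 with an adjusted p of 0.0382. Every young transgenic DN3a library carried the letter a in its label, and the old ones a or b. With this letter as a covariate in edgeR, Ttf2 stood at 0.30 (adjusted p = 0.500) and Cd2 at -0.32 (0.778). Sex as a covariate gave 0.52 for Ttf2 and -0.81 for Cd2. The genotype difference changed with age by -0.31 ± 0.93 for Cd2, -0.08 ± 0.64 for Ptgfrn, -0.77 ± 0.35 for Igsf3, 0.75 ± 0.31 for Ttf2 and 0.35 ± 0.34 for Trim45, values given without a test.

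Levels can be compared between the genes only per length. In transgenic young DN3a Cd2 stood at 66.7 ± 18.1 CPM per kb of counted length (SD, n = 3), Ttf2 at 12.4 ± 3.04, Igsf3 at 7.73 ± 2.38, Ptgfrn at 3.60 ± 0.533 and Trim45 at 1.83 ± 0.184. The libraries of neighbours in this order did not overlap, except those of Ttf2 and Igsf3. In wild-type young DN3a the order was Ttf2 at 8.26 ± 2.69, Trim45 at 1.90 ± 0.178, Igsf3 at 1.03 ± 0.282, Cd2 at 0.474 ± 0.250 and Ptgfrn at 0.154 ± 0.0591 CPM per kb. Cd2 thus went from the fourth place to the first between genotypes. In transgenic DN2 it stood at 7.05 ± 6.51 CPM per kb beside 7.55 ± 1.26 for Ttf2, and those groups overlapped.

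Within the 6 transgenic DN3a libraries the per-length level of Cd2 was 6.25 to 8.98 times that of Igsf3 and 7.68 to 20.3 times that of Ptgfrn. The ratio to Igsf3 therefore varied less between mice than the ratio to Ptgfrn. In old mice the 2 ratios to Ptgfrn of replicates 2 and 3 (7.68 and 10.4) lay under all 3 young values (15.6, 19.1 and 20.3), and that of replicate 1 was 17.8.

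**Figure D3:**
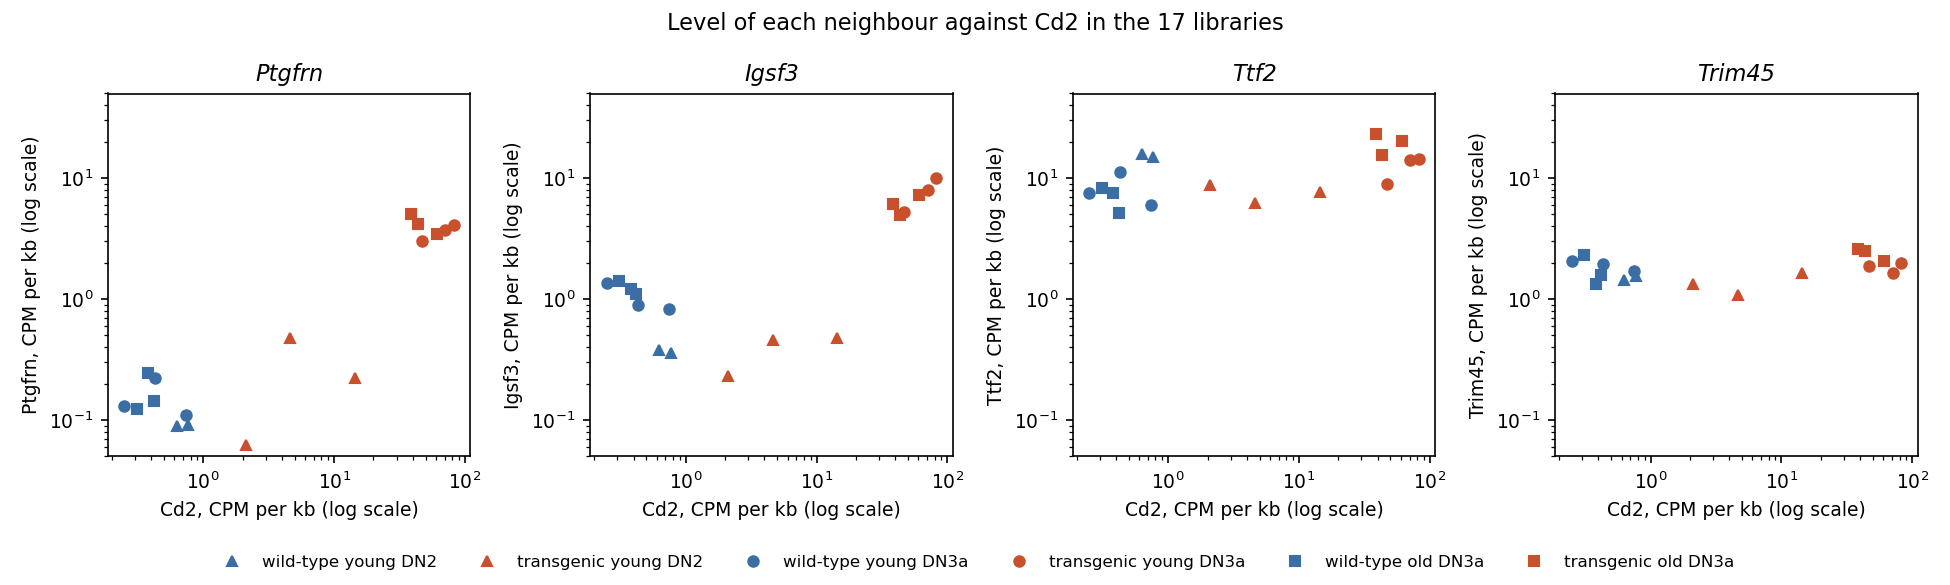
Level of each neighbour against that of Cd2 in the 17 libraries, both in CPM per kb on log scales; colour marks genotype and shape marks stage and age. The 6 transgenic DN3a libraries form a group at high Cd2 in which Ptgfrn and Igsf3 are high as well, the transgenic DN2 libraries lie between on Cd2, and Trim45 stays within 1.08 to 2.60 CPM per kb.

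The rest of the neighbourhood was examined by position. Within 1 Mb of Cd2 17 genes had a row in the count table, and 8 passed the filter. Of the 12 that are not among the 5, 5 had no read in any library (4930406D18Rik, Vtcn1, Nhlh2, Casq2 and A230001M10Rik) and 4 were under the filter. Cd101, an immunoglobulin-superfamily gene between Ttf2 and Ptgfrn, was in the last group with 31 reads over all 17 libraries and at most 5 in a library. Tent5c had 17 reads, Mab21l3 9 and Vangl1 5.

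The other 3 passed the filter, among them Man1a2, a Golgi mannosidase, and Slc22a15, an organic ion transporter. In young DN2 0 of the 3 passed (edgeR, also 0 at an unadjusted p under 0.05, 0 by DESeq2 and 0 by limma voom). In young DN3a 0 of the 3 passed in edgeR and DESeq2, 1 was under 0.05 unadjusted, and limma voom called 2, Man1a2 and Slc22a15. Over all tested genes 13.4% were higher and 12.0% lower in young DN2, and 4.69% and 5.14% in young DN3a. In old DN3a 1 of the 3 was higher, against 14.9% of all tested genes. This was Slc22a15 (2.77 ± 0.51 on the log2 scale, adjusted p = 0.000534), with 7.54, 4.54 and 3.95 CPM in transgenic libraries against 0.598, 0.218 and 1.54 CPM in wild-type ones. Without wild-type old replicate 3 its value was 3.65. In young DN3a it stood at 1.02 ± 0.46 (adjusted p = 0.187), and in wild-type mice it was lower in old than in young DN3a by 1.63 ± 0.52 (adjusted p = 0.336), which did not pass.

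**Figure D4:**
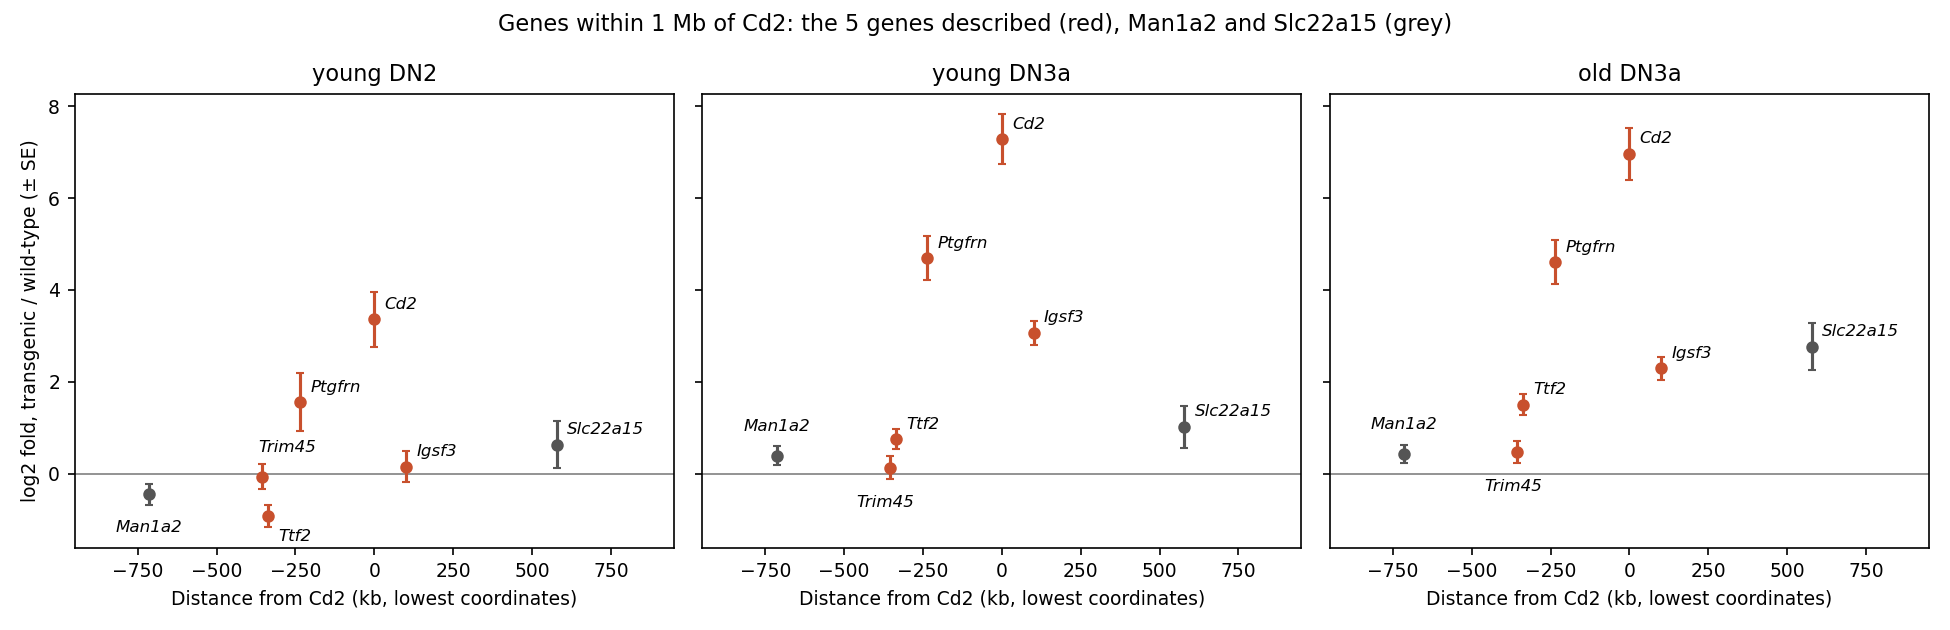
Log2 fold of transgenic over wild-type with its standard error (vertical axis) against the distance from Cd2 in kb, measured between lowest coordinates, for 7 of the 8 tested genes within 1 Mb in each genotype comparison; red marks the 5 genes described and grey Man1a2 and Slc22a15. Cd2 at 0 kb has the highest point in each panel, Ptgfrn and Igsf3 stand beside it at DN3a, and Slc22a15 is raised in old DN3a.

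Likeness to Cd2 was measured by Pearson's r of log2 CPM over the 17 libraries, which fall into 6 groups and differ in depth, so it is a description. The 8 most alike genes were AB124611 (r = 0.973), Cpeb1 (0.971), Tmem45a (0.967), Kcns3 (0.966), Pwwp3b (0.963), Adgre5 (0.962), Itgb2 (0.959) and Tbx4 (0.957). None of them lies on chromosome 3. Among 13533 genes Ptgfrn ranked 32 (r = 0.915), Igsf3 280 (0.751), Ttf2 858 (0.602) and Trim45 1963 (0.458). Adgre5, the adhesion receptor CD97, stood at 70.7 ± 10.1 CPM (SD, n = 3) in transgenic young DN3a against 8.56 ± 0.606 in wild-type. Itgb2, the beta chain of leukocyte integrins, stood at 73.6 ± 19.7 against 24.7 ± 1.51.

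Over the 9 transgenic libraries alone, which part by stage, the 5 most alike were Gzma (0.989), Klc3 (0.987), Cd3d (0.986), Cenpv (0.985) and Pgpep1l (0.984). Igsf3 ranked 45 (0.957) and Ptgfrn 226 (0.915) there. Cd3d, a chain of the T cell receptor complex, stood at 28.7 ± 21.9 CPM in transgenic DN2 and 486 ± 85.3 in transgenic young DN3a, but also at 297 ± 37.6 and 730 ± 87.1 in the wild-type groups where Cd2 was near silent. Lmo2 was the reverse case, with r = 0.809 over all libraries and -0.759 over the transgenic ones. It fell from DN2 to DN3a in transgenic mice by 1.74 ± 0.35 on the log2 scale (adjusted p = 0.00109), the passage over which Cd2 stood higher at DN3a in every transgenic mouse.

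Of 12 ligand and signalling partners of CD2, all tested, 1 was higher and 2 lower in transgenic DN2, 2 higher and 1 lower in young DN3a, and 4 higher and 2 lower in old DN3a. Over all tested genes 13.4% were higher and 12.0% lower in DN2, 4.69% and 5.14% in young DN3a, and 14.9% and 15.7% in old DN3a. The list's median log2 difference was -0.07, 0.06 and 0.21. Cd48, the ligand of mouse CD2, rose by 1.05 ± 0.21 in DN2 (adjusted p = 0.00149) and by 0.64 ± 0.18 in young DN3a (0.0338), the latter call being lost in 6 of 17 fits that left out a library. Lck, the kinase that starts T cell receptor signalling, fell by 0.65 ± 0.19 in young DN3a (adjusted p = 0.0412, lost in 10 of 17 such fits) and by 0.76 ± 0.19 in old DN3a (0.00614). Pstpip1, an adaptor that binds the CD2 tail, fell by 1.03 ± 0.22 in old DN3a (adjusted p = 0.00166). Cd2bp2, named for binding the same tail, rose there by 0.41 ± 0.13 (0.0225, lost in 4 of 17 fits).

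The SLAM family, relatives of CD2, was also examined, with 8 of 10 genes tested. In DN2 4 were higher and 2 lower, in young DN3a 4 were higher, and in old DN3a 5 were higher. The median log2 difference was 0.44, 1.14 and 1.34. Over all tested genes 13.4%, 4.69% and 14.9% were higher in these comparisons, and 12.0% were lower in DN2. In young DN3a limma voom called 7 of the 8. Cd244a, a receptor that like CD2 binds CD48, rose by 3.18 ± 0.49 in DN2 (adjusted p = 0.000168) and by 2.80 ± 0.45 in old DN3a (0.000128), and stood at 1.32 ± 0.47 in young DN3a (0.0874). Ly9 rose by 1.20 ± 0.23 in young DN3a (0.00221) and by 0.89 ± 0.23 in old DN3a (0.00678). Cd84 stood close to the threshold in DN2 (0.56 ± 0.20, adjusted p = 0.0496), and its call was lost in 14 of 17 fits that left out a library.

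Of a list of 8 genes, made up of other EWI proteins, tetraspanins and the prostaglandin F receptor Ptgfr, 6 were tested. In DN2 2 were higher and 1 lower, and 1 was higher in each DN3a comparison, with medians of 0.18, 0.06 and -0.09. The shares of all tested genes that were higher were 13.4%, 4.69% and 14.9%, and 12.0% were lower in DN2. Cd81, a tetraspanin known to bind EWI proteins, rose by 1.97 ± 0.28 in young DN3a (adjusted p = 0.000166) and by 3.39 ± 0.31 in old DN3a (2.97e-07), the groups in which Ptgfrn and Igsf3 were high. Igsf8, a further EWI gene outside this region, fell by 2.27 ± 0.27 in DN2 (1.34e-05) and stood at 0.40 ± 0.23 and -0.28 ± 0.23 in the DN3a groups. Cd82 (0.86 ± 0.23, adjusted p = 0.00968) and Cd151 (0.81 ± 0.28, 0.0415) rose in DN2, with the calls lost in 2 and 8 of 17 fits that left out a library.

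Genes with roles near those of Ttf2 and Trim45 were counted in the same way. Of 7 other termination and release factors, none passed in DN2 or young DN3a by edgeR or DESeq2, where limma voom called 2 in each and 2 and 1 were under 0.05 unadjusted in edgeR. In old DN3a 3 were higher, against 14.9% of all tested genes, and the medians were 0.04, 0.08 and 0.40. Among them were Cstf2, a cleavage factor (0.98 ± 0.20, adjusted p = 0.00128), and Rprd1b (0.48 ± 0.16, 0.0306, lost in 4 of 17 fits that left out a library). Of 8 other TRIM genes 1 was higher and 1 lower in DN2, 1 was lower in young DN3a, and 2 were higher and 3 lower in old DN3a. The medians were -0.05, -0.06 and 0.11. Over all tested genes 13.4% were higher and 12.0% lower in DN2, and 5.14% lower in young DN3a. In old DN3a 14.9% of all were higher and 15.7% lower. Trim46 fell by 1.35 ± 0.36 in young DN3a (0.0210, lost in 4 of 17 fits) and by 2.06 ± 0.37 in old DN3a (0.000400). Without transgenic old replicate 1 the latter was -2.65.

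Marker levels differed between the genotypes beside these results. In bulk RNA a change in the share of a cell type and a change in RNA per cell cannot be told apart. Over all tested genes 13.4% were higher and 12.0% lower in transgenic DN2, and 4.69% higher in young DN3a. In old DN3a 14.9% of all were higher and 15.7% lower. Of 9 double positive and mature T cell markers, 3 were higher and 2 lower in transgenic DN2. In DN3a 4 were higher in young and in old transgenic mice (Cd8a, Cd8b1, Cd5 and Cd6), and 2 were lower in old ones (Cd4 and Cd28). Their summed level was 203 to 324 CPM in transgenic young DN3a against 85.7 to 95.6 in wild-type, 238 to 349 against 109 to 129 in old DN3a, and 175 to 235 against 96.7 to 98.5 in DN2. Cd4, also a defining marker of double positive cells, stood at 2.91 ± 1.20 CPM in transgenic young DN3a and 4.53 ± 1.45 in wild-type. In old DN3a it fell by 2.77 ± 0.65 on the log2 scale, to 0.629 ± 0.115 CPM from 4.37 ± 1.03 (edgeR adjusted p = 0.00327). The part of this difference in the Cd2, Ptgfrn and Igsf3 levels was not tested.

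Natural killer cells, which also carry CD2, were examined by 10 markers, of which 5 passed the filter. In DN2 3 were higher and 2 lower, against 13.4% and 12.0% of all tested genes. In each DN3a comparison 1 of these markers was higher, against 4.69% in young and 14.9% in old DN3a. Gzmb and Klrd1 had no read in wild-type libraries and passed the filter only through transgenic ones. Their calls and these counts are therefore a description, and nothing is read from them. Their summed level was 260 to 411 CPM in transgenic young DN3a against 216 to 286 in wild-type, 222 to 327 against 116 to 189 in old DN3a, and 183 to 305 against 287 to 321 in DN2. The defining receptors Ncr1 and Klrk1 had no read in any group. Gzmb, a cytotoxic granule protease, had no read in wild-type libraries and stood at 34.7 ± 9.54 CPM in transgenic DN2, at least 252-fold higher by a floor of 3 reads over the wild-type group. In transgenic young DN3a, where Cd2 was higher, Gzmb stood at 0.324 ± 0.263 CPM on 8 reads, and its call there (edgeR adjusted p = 0.0490) was lost in 10 of 17 fits that left out a library. Klrd1, a lectin-like receptor, stood at 1.21 ± 0.540 CPM in transgenic DN2 against no read in wild-type (edgeR adjusted p = 0.0126), a call lost without wild-type DN2 replicate 1. It passed the filter in only 15 of the 17 fits that left out a library. Gzma, a related protease, fell by 3.11 ± 0.36 on the log2 scale in transgenic DN2 and rose by 1.41 ± 0.32 in old DN3a. Myeloid markers summed to 115 to 146 CPM in transgenic DN2 against 16.1 to 22.2 in wild-type, with Elane and S100a8 at 0 in every group. The sums were 4.30 to 6.13 against 18.3 to 27.0 in young DN3a and 3.52 to 4.15 against 23.2 to 36.8 in old DN3a. B cell markers summed to 21.8 to 87.9 CPM over all groups with Ms4a1 at 0. Thymic stroma markers summed to 3.06 to 5.77 CPM in transgenic against 36.4 to 62.4 in wild-type DN2, 37.4 to 43.0 against 112 to 155 in young DN3a, and 24.6 to 29.5 against 104 to 111 in old DN3a, with Foxn1 and Pdgfra at 0 in every group. Most of this was Epcam, an epithelial adhesion protein, which fell by 3.88 ± 0.26, 1.58 ± 0.21 and 2.02 ± 0.21 on the log2 scale. The part of these markers in the levels of the 5 genes was not tested.

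The labelled stages were checked against their own markers. Rag1, which cuts the receptor loci, stood at 596 ± 111 CPM (SD, n = 2) in wild-type DN2 and 2739 ± 322 (n = 3) in wild-type young DN3a. In transgenic mice it stood at 74.0 ± 14.3 and 1012 ± 209 CPM. Ptcra, the pre-receptor alpha chain, went from 122 ± 19.3 to 403 ± 125 CPM in wild-type and from 3.88 ± 2.46 to 114 ± 4.91 in transgenic mice. Kit, the receptor of early progenitors, went from 140 ± 15.9 to 72.3 ± 12.7 CPM in wild-type and from 550 ± 45.9 to 115 ± 15.4 in transgenic mice. In young mice these markers moved the same way between stages in both genotypes, with lower Rag1 and Ptcra and higher Kit in transgenic mice at both stages. Mean Ptcra in transgenic young DN3a (114 CPM) was near that of wild-type DN2 (122 CPM). On Kit and Ptcra transgenic old DN3a stood further from the labelled stage. Kit was at 214 ± 72.8 CPM there, above the mean of wild-type DN2, and Ptcra at 20.5 ± 5.69, below wild-type DN2, while wild-type old DN3a held 77.5 ± 18.5 and 288 ± 87.0 CPM. Rag1 stood at 859 ± 320 CPM in transgenic and 1659 ± 320 in wild-type old DN3a. Cd44, also an early progenitor (DN2) marker, did not follow Kit. It stood at 8.80 ± 2.29 CPM in transgenic and 6.33 ± 3.69 in wild-type old DN3a, which overlap. In young DN3a it stood at 3.54 ± 1.12 and 3.77 ± 3.07 CPM, and in DN2 at 45.6 ± 5.23 and 21.1 ± 2.88. Of 7 early progenitor (DN2) markers 6 were tested. In transgenic old DN3a 2 of them were higher (Kit and Lyl1), against 14.9% of all tested genes. A further 2 were lower (Il2ra and Spi1), against 15.7%, so this list did not move in 1 direction. Il2ra is also on the list of DN3a markers, so its fall in old DN3a is counted in both. Of 7 DN3a markers 5 were lower in young and 6 in old transgenic DN3a, against 5.14% and 15.7% of all tested genes. These are the libraries where Cd2, Ptgfrn and Igsf3 were high.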

How the data were processed

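Reads per gene were deposited as whole-number counts for 27179 Entrez identifiers. Per the submitters' processing notes, featureCounts and mm10 were used. The sources used here give no aligner, annotation or strand. The 17 single-library files equalled the columns of the combined table. RefSeq named 25275 identifiers. A further wild-type DN2 library of the design is not analysed here.

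Genes were filtered with edgeR 4.0.16 (minimum count 10, minimum total 15, leaving 13534), scaled by TMM and fitted by quasi-likelihood in R 4.3.3 over all 17 libraries with 1 mean per group (common biological coefficient of variation 0.244). Adjusted p-values are Benjamini-Hochberg over all 13534 genes, called under 0.05. The SE of a fitted log2 fold is its size over the square root of its F statistic, and 95% intervals are normal ones from that SE. Log2 CPM used a prior count of 2. Replicates within a group are separate mice, and p-values measure the spread between libraries. The main fit did not pair the DN2 and DN3a libraries of a mouse, and the Lmo2 stage value was not refitted with that pairing. The procedure was tested on simulated data. Planted 2-fold changes were recovered in 30% of 50 genes for the wild-type stage test. For the age tests 36% were recovered in wild-type and 56% in transgenic mice. Planted 4-fold changes were recovered in 88%, 86% and 80%, so small differences could be missed.

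The members and gene lists were chosen with earlier results of these data known. Named genes are the 5 members, Lmo2, genes within 1 Mb of Cd2 with a count row, the 8 genes most like Cd2 over all libraries, the 5 most alike over transgenic ones, and, in list order, at most 4 genes that were called from any list. Not every gene chosen this way has its values printed. Stage and cell type markers given with values were picked from their lists after their values were seen.

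For the 5 young mice sampled at both stages, per the labels, the correlation of a mouse's DN2 deviation with its DN3a deviation was -0.0722 to 0.185. As the labels give the same mouse, the stage test was also fitted with the mouse as a block. Alternatives were DESeq2 1.42.0, voom with quality weights (limma 3.58.1), RLE scaling, an unfiltered table, only the groups compared, covariates for sex and library letter, removal of the unnamed feature, Lars2 and mitochondrial genes, and a block by replicate number. Each library, the male mice and the 4 libraries rich in the unnamed feature were also left out in turn.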

Additional observations from a re-analysis of the deposited data

How the results depend on the processing

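No result tried changed direction past its threshold. The 2 calls of the 5 genes between wild-type stages became 1 with limma voom, 0 in a fit of the groups compared, 1 without male mice, and 0 to 2 when each library was left out. The lowest count came without wild-type DN2 replicate 1 or wild-type young DN3a replicate 1. With the mouse as a replicate block, which pairs 5 young mice, both calls stayed, at 1.46 for Igsf3 (adjusted p = 0.0167) and -1.25 for Ttf2 (0.00885), so the pairing changed no call among the 5 genes, and a block by replicate number gave 2, 0 and 0 calls in the stage and both age tests. Age in transgenic mice went from 0 calls to 1 with limma voom. Among the other 3 genes within 1 Mb, limma voom called 2 in young DN3a against 0. In old DN3a, leaving out each library gave 1 to 2 calls, with 2 without transgenic DN2 replicate 1. In DN2, 1 was called against 0 without the 4 libraries rich in the unnamed feature, an alternative chosen after seeing the data. On the log2 scale the transgenic excess of Cd2 ranged over left-out libraries from 2.41 to 3.77 in DN2, from 6.98 to 7.73 in young DN3a and from 6.79 to 7.11 in old DN3a, and was 7.89 in young DN3a without male mice. Depth limits the wild-type Cd2 level, which rests on 3 to 10 reads a library, and that of Ptgfrn, on 5 to 13.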
